A study of Mus musculus with 30 samples.

Results

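The redox selenoenzymes measured here were 8 genes, Gpx1, Gpx3, Gpx4, Txnrd1, Txnrd2, Txnrd3, Sepx1 (now named Msrb1) and Dio2. They were taken by symbol from the 21412 genes of the hippocampal expression table, and each of the 8 symbols matched 1 row. Hippocampus RNA of 30 male BALB/c mice was sequenced with 1 library per mouse, in 6 groups of 5. Mice of the Ctr, LD and HD groups were bought at 2 to 3 weeks of age and ate feed with 0, 0.28 or 5 mg of methylmercury (MeHg) per kg for 11 weeks. Mice of the Se_Ctr, Se_LD and Se_HD groups received selenium alone or together with the low or the high mercury dose, and the series title names the form as selenium-methionine. The labels do not give the concentrations in these selenium diets, nor the age of these mice or the weeks on the diet, so that differences in age or duration cannot be told apart from the diet in the comparisons between diets. All values come from whole hippocampus, so that fewer cells of a type and less RNA per cell cannot be told apart. The libraries held from 5768208 to 11510521 reads assigned to genes. Each library came from a separate mouse.

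Selenoenzymes carry selenocysteine (Sec) at the catalytic site, an amino acid that the ribosome inserts at a UGA codon that otherwise ends translation. Glutathione peroxidases use glutathione to reduce hydrogen peroxide and lipid peroxides, and thioredoxin reductases keep thioredoxin, the other main thiol reductant of the cell, in its reduced form. Selenium in these enzymes is a known binding partner of methylmercury, and when selenium is short some selenoprotein mRNAs are known to be degraded because the UGA is read as a premature stop.

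The stretch around the Sec codon of each gene is shown because it carries the feature that the 8 genes share and because its place in the transcript differs between them. Each line gives the coding strand of the transcript, from 5′ to 3′ on the NCBIM37 build (GENCODE M1), with the Sec codon in capitals and at most 24 coding bases on either side. Dio2, which activates thyroid hormone, has 2 annotated Sec codons. For each gene the longest coding transcript with an annotated Sec codon was used, which for Gpx4 is Gpx4-002. Residue and exon numbers hold for that transcript, and which transcripts the hippocampus expressed was not tested.
Gpx1: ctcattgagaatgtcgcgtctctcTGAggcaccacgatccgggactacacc
Gpx3: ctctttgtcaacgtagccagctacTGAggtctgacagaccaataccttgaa
Gpx4: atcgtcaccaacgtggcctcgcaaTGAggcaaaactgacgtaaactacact
Txnrd1: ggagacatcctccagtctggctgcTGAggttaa
Txnrd2: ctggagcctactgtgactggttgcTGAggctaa
Txnrd3: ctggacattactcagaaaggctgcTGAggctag
Sepx1: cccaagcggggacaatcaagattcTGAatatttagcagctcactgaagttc
Dio2, first codon: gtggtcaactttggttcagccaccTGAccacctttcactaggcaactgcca
Dio2, second codon: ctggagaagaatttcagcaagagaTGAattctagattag
The 3 thioredoxin reductases have the codon as the last but one of the protein, at residue 498 of 499 in Txnrd1, 523 of 524 in Txnrd2 and 614 of 615 in Txnrd3. In the glutathione peroxidases it lies further inside the protein, at residue 47 of 201 in Gpx1, 73 of 226 in Gpx3 and 129 of 253 in Gpx4. Sepx1, which reduces oxidised methionine, has it at residue 95 of 116. The Dio2 codons are at residues 130 and 263 of 266.

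The genes also differ in the position of the codon relative to the last exon junction. The codon lies upstream of that junction in Gpx1 (105 bases, exon 1 of 2), Gpx3 (240 bases, exon 2 of 5), Gpx4 (342 bases, exon 3 of 7), Txnrd2 (83 bases, exon 17 of 18) and Sepx1 (34 bases, exon 3 of 4). In Txnrd1, Txnrd3 and Dio2 it lies in the last exon. Gpx1 is on the plus strand of chromosome 9 with its codon at chr9:108241782-108241784, and Gpx4 is on the plus strand of chromosome 10 with its codon at chr10:79517482-79517484. The codon of Txnrd1 is at chr10:82358782-82358784, that of Txnrd3 at chr6:89624783-89624785 and that of Sepx1 at chr17:24877103-24877105. Those of Gpx3 and Txnrd2 are at chr11:54720758-54720760 and chr16:18477865-18477867. Dio2 is on the minus strand of chromosome 12, with the codons at chr12:91968263-91968265 and chr12:91967864-91967866.

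All 8 transcripts were detected in every library, and their levels per kilobase of exon covered a wide range. The length used was that of all annotated exons merged. It exceeds the longest coding transcript for some genes, such as Txnrd2 (3339 against 1905 bases) and Gpx3 (1813 against 1594). The order of genes that are close in level depends on this choice. Gpx4, the peroxidase that reduces lipid peroxides in membranes, was the most abundant at 664 ± 102 normalized counts per kb (mean ± SD, n = 30 mice). It was above Gpx1 in 30 of 30 mice, by a median of 3.95 times. Gpx1, the general cytosolic peroxidase, followed at 165 ± 39.9 per kb and Dio2 at 122 ± 20.8 per kb. Txnrd1, the cytosolic thioredoxin reductase, was at 112 ± 12.8 per kb and did not separate from Dio2, which was the higher of the pair in 18 of 30 mice. Sepx1 was at 89.1 ± 13.8 per kb and below Txnrd1 in 27 of 30 mice. The remaining genes were lower, with Gpx3, the secreted peroxidase, at 25 ± 7.39 per kb, Txnrd2, the mitochondrial reductase, at 21.3 ± 2.72 per kb and Txnrd3, known best from testis, at 9.46 ± 2.96 per kb. Gpx3 and Txnrd2 were not separated, since Gpx3 was the higher in 20 of 30 mice, while Txnrd2 was above Txnrd3 in 30 of 30.

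**Figure D1:**
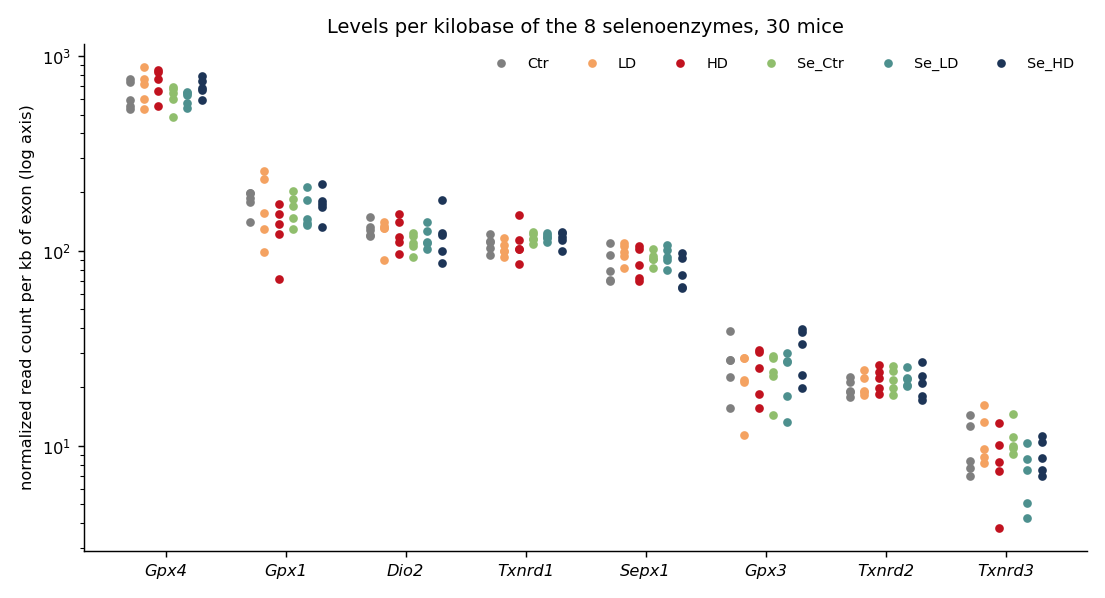
Normalized read counts per kilobase of exon (log axis) of the 8 selenoenzymes, with 1 point per mouse and colours for the 6 groups. Gpx4 lies above all other members in all mice. Txnrd3 has the lowest mean, with a range of 3.79 to 16.2 per kb, but in Se_Ctr replicate 4 Gpx3 (14.3) lies below it (14.5).

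No member passed an adjusted p under 0.05 in any of the 12 contrasts made with limma, and edgeR and DESeq2 on the recovered reads also called 0 of the 8 in each. Among all genes tested with limma, that call was reached by 0.13% in HD against Ctr, 0.327% in Se_HD against HD and 0.21% for HD pooled over both diets, and by 0% in each of the other 9 contrasts. In those 9, edgeR called 0 genes, and DESeq2 called 4 in Se_HD against Se_Ctr, 3 for selenium pooled and 12 for the difference of the HD effect between the diets. At an unadjusted p under 0.05, with the F test over the 3 groups of a diet also under 0.05 where the contrast was made within a diet, 5 of the 96 member values passed. Within the feed without added selenium 0 of 8 passed in LD against Ctr, where 1.46% of all genes did. In HD against Ctr 0 of 8 passed, where 5.09% of all genes did. Within the selenium diet 1 of 8 passed in Se_LD against Se_Ctr (Txnrd3, against 1.46% of all genes) and 0 of 8 in Se_HD against Se_Ctr (2.06% of all genes). Between the diets 0 of 8 passed in Se_Ctr against Ctr (4% of all genes), 1 of 8 in Se_LD against LD (Txnrd3, 2.86% of all genes) and 1 of 8 in Se_HD against HD (Gpx1, 8.38% of all genes). Over both diets 1 of 8 passed for HD (Gpx4, 9.09% of all genes), 0 of 8 for LD (2.69%) and 1 of 8 for selenium (Txnrd1, 6.62%). The difference of the HD effect between the diets passed in 0 of 8 (4.77% of all genes) and that of the LD effect in 0 of 8 (3.75%). No contrast thus had more than 1 member past the weaker threshold, and counts this small over 8 genes cannot be set apart from the background shares.

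**Figure D2:**
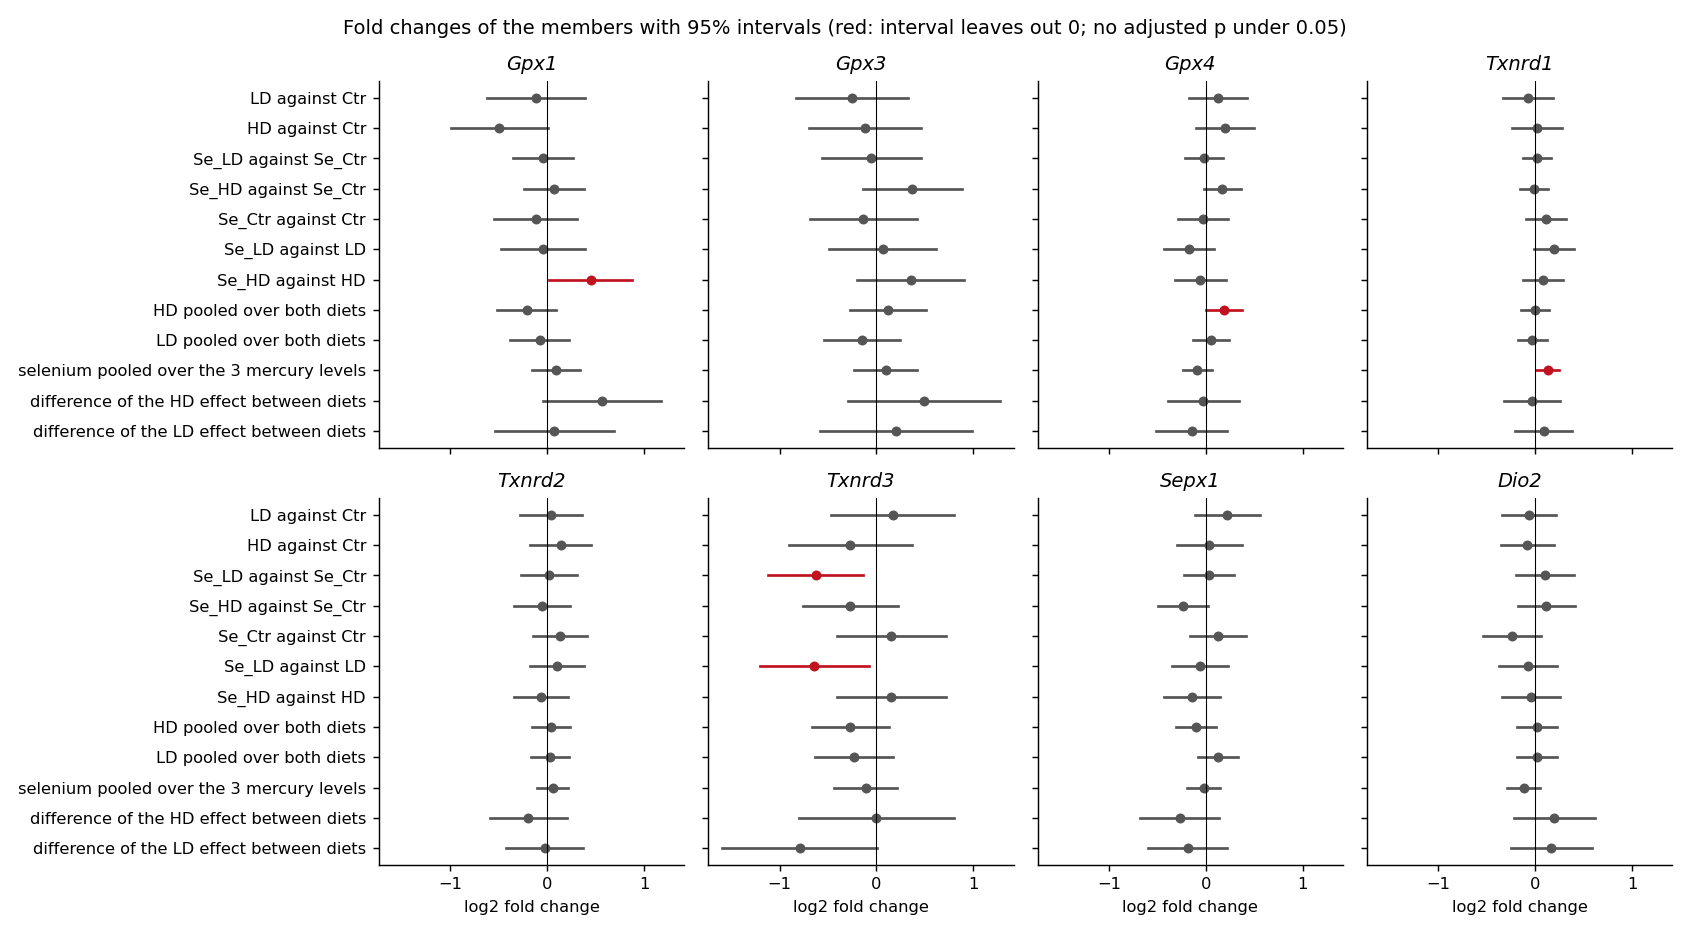
Log2 fold changes of the 8 selenoenzymes in the 12 contrasts, with points for limma's estimate and lines for the 95% interval. The 5 red intervals leave out 0 before adjustment, and none of the 96 values passed after adjustment over all genes.

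Gpx1 was the member with the largest difference in HD mice. Its normalized counts were 119, 150.2, 158, 167 and 168 in the 5 Ctr mice, 83.7, 109.5, 133, 198 and 218 in LD and 60.5, 103, 117, 131 and 147 in HD. Under selenium they were 109, 124, 143, 156 and 171 in Se_Ctr, 115, 117, 123, 153 and 179 in Se_LD and 112, 142, 148, 152 and 187 in Se_HD. The HD group had the lowest mean of the 6 (112 ± 32.9), and 3 of its 5 mice were below all Ctr mice, but the groups overlapped. HD was lower than Ctr by a log2 fold change of -0.49 (SE 0.24, limma adjusted p = 0.609, exact two-sided permutation p = 0.0397). Se_HD was higher than HD by 0.45 (95% interval 0.02 to 0.88, adjusted p = 0.576), a comparison that shares the HD mice with the first. The exact permutation test of Se_HD against HD gave p = 0.0873. Within the selenium diet the value was 0.07 (interval -0.24 to 0.38) for Se_HD against Se_Ctr. The difference of the HD effect between the diets was 0.57 (SE 0.30, adjusted p = 0.997). The lowest HD mouse, replicate 1, rests on 45 reads. Without it the log2 fold change was -0.29 for HD against Ctr and 0.24 for Se_HD against HD, and the difference of the HD effect was 0.36.

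Markers of other cell types moved in the same HD mice. The summed level of 14 microglia markers was 3727 to 9125 normalized counts in HD, 2931 to 3220 in Ctr and 3078 to 3544 in Se_HD, and 6 of the 14 rose in HD against Ctr at an adjusted p under 0.05. Of 10 astrocyte markers 1 rose there (Gfap). The HD mouse with the lowest Gpx1 had a microglia sum of 4482, and the mouse with the highest sum, replicate 2, had a Gpx1 count of 131. The part of cell composition in the Gpx1 values was not tested.

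Gpx4 had overlapping values in the 6 groups, with its highest group mean in HD (1222 ± 205). Its normalized counts were 889, 929, 998, 1231 and 1276 in Ctr, 889, 1003, 1202, 1271 and 1467 in LD and 924, 1109.7, 1276, 1386 and 1415 in HD. In the selenium groups they were 813, 1005, 1086, 1138 and 1156 in Se_Ctr, 899.7, 962, 1051, 1080.4 and 1097 in Se_LD and 999, 1116, 1142, 1251 and 1327 in Se_HD. The group means spanned a factor of 1.2. HD pooled over both diets was higher than control by 0.18 (interval 0.00 to 0.37, adjusted p = 0.543), with 0.20 in HD against Ctr and 0.17 in Se_HD against Se_Ctr. Without Se_Ctr replicate 4 the latter was 0.09. Over the 30 mice Gpx4 correlated with the sum of 10 astrocyte markers at r = -0.14, and at -0.64 after subtraction of the group means. The part of cell composition in the Gpx4 values was not tested.

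The Gpx4 count also went with an index of base composition that was computed from the expression values. A GC index was taken for each library as the median log2 deviation of the 10% of genes richest in GC minus that of the 10% poorest in GC, and it ran from -0.47 to 0.40 over the 30 libraries. Gpx4, whose longest coding transcript is 60.2% GC, correlated with the index at r = 0.75 over the 30 mice and at 0.84 after subtraction of the group means. Gpx4 is itself 1 of the 1346 genes in the GC-rich 10%, which starts at 58.3% GC. The index did not separate the groups, with medians between -0.02 and 0.05. With the index as a covariate, an alternative added after seeing the data, HD pooled was 0.18 with an adjusted p of 0.168. Gpx4 further has a stretch of 777 bases with 99.7% identity at chr10:45595096-45595872, where the annotation holds no exon of another gene, so its count depends on how reads that map to both places were treated.

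Gpx3 was too low and too variable for firm statements. Its normalized counts were between 20.6 and 71.7, on 16 to 77 reads, and its log2 SD within groups was 0.46. Counting error alone would give a log2 SD of about 0.23. The highest group mean was in Se_HD (56 ± 16.3) and the lowest in LD (40.2 ± 12.5). Se_HD against Se_Ctr was 0.37 (interval -0.14 to 0.88, adjusted p = 1.00) and HD against Ctr -0.12 (interval -0.70 to 0.46). On the linear scale the latter interval runs from 0.617 to 1.37 times Ctr, so changes in either direction within these limits remain compatible with the data.

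**Figure D3:**
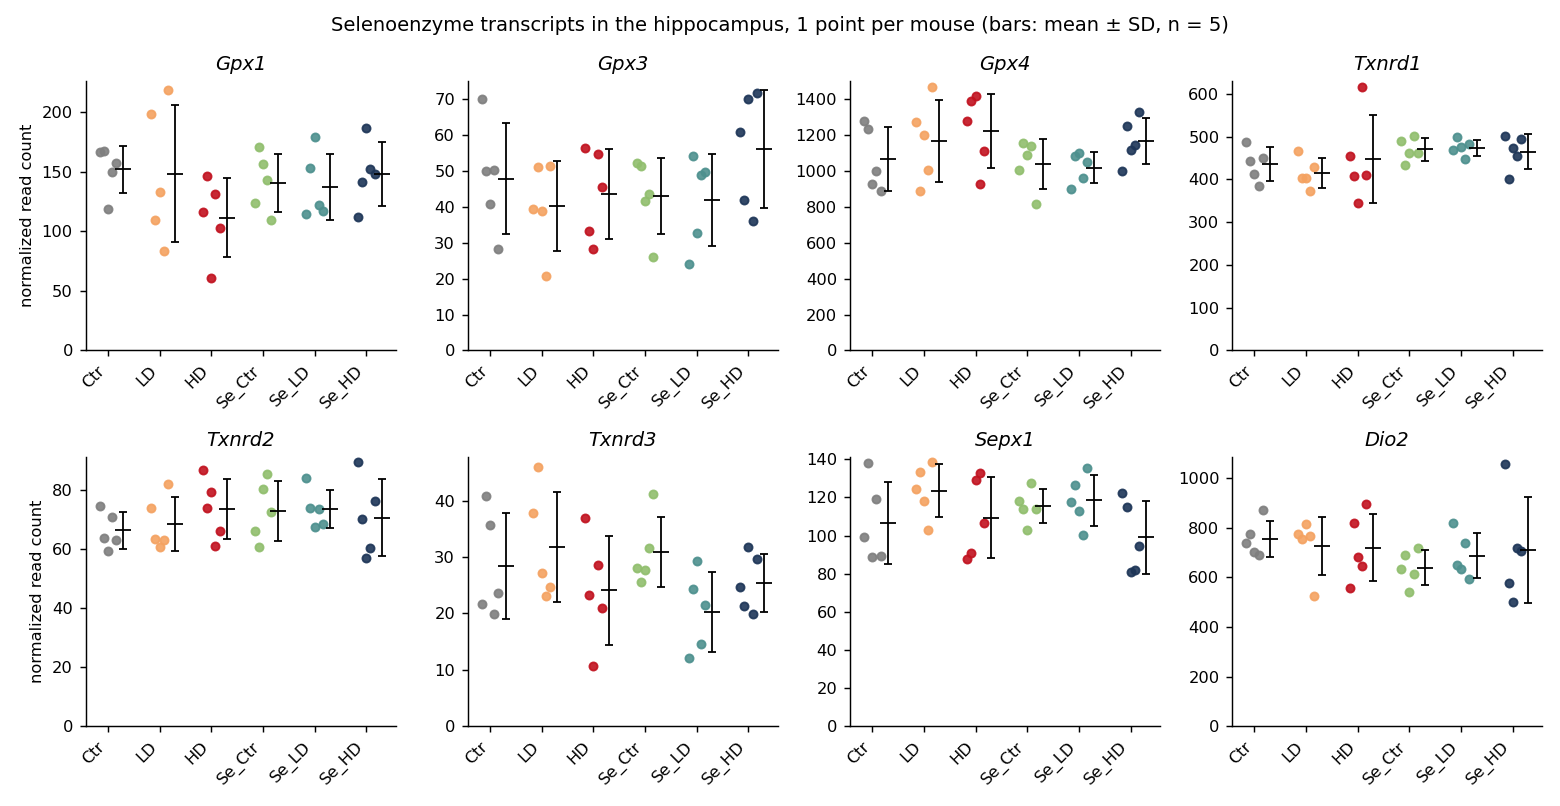
Normalized read counts of the 8 selenoenzymes (vertical axes from 0) in the 6 groups, with 1 point per mouse and bars for mean ± SD. The groups of each gene overlap, and the low HD points of Gpx1 and low Se_LD points of Txnrd3 are the visible departures.

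Txnrd1 had the tightest values among the members. Its normalized counts were 385, 413, 444, 449.6 and 488 in Ctr, 373, 402, 403, 429 and 465 in LD and 346, 408, 411, 456 and 616 in HD. They were 434, 461, 462, 491 and 502 in Se_Ctr, 447, 468, 475, 482 and 498 in Se_LD and 401, 455, 473, 494 and 502 in Se_HD. The mean of each selenium group was above that of its counterpart without added selenium. In Se_LD 4 of 5 mice were above all LD mice. Selenium pooled over the 3 mercury levels was higher by 0.13, a fold of 1.09 (interval 1.01 to 1.19, adjusted p = 0.752). Se_LD against LD was 0.20 (adjusted p = 1.00, exact two-sided permutation p = 0.0159). HD against Ctr was 0.01, with a fold interval of 0.84 to 1.21. The HD mouse at 616 was replicate 2, which also had the highest microglia sum, and without it selenium pooled was 0.17. The part of cell composition in that value was not tested.

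Txnrd2 did not pass in any contrast. Its counts were between 57.2 and 89.8, and its group means lay between 66.5 ± 6.23 in Ctr and 73.7 ± 6.55 in Se_LD. HD against Ctr was 0.14 (interval -0.18 to 0.46) and selenium pooled was 0.06 (interval -0.10 to 0.22).

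Txnrd3 had the lowest mean of the members, with 8 to 51 reads per library. Its normalized counts were 19.8, 21.7, 23.7, 35.7 and 40.9 in Ctr, 23.2, 24.7, 27.2, 37.8 and 46 in LD and 10.8, 20.9, 23.3, 28.6 and 37 in HD. They were 25.6, 27.7, 28.1, 31.6 and 41.2 in Se_Ctr, 12, 14.5, 21.4, 24.4 and 29.3 in Se_LD and 19.8, 21.3, 24.7, 29.6 and 31.8 in Se_HD. In Se_LD 4 of 5 mice were below all Se_Ctr mice, and 3 of 5 were below all LD mice. Se_LD was lower than Se_Ctr by a log2 fold change of -0.63 (interval -1.12 to -0.14, adjusted p = 1.00, exact two-sided permutation p = 0.0397). Se_LD against LD was -0.64 (interval -1.20 to -0.08, adjusted p = 1.00), which uses the same Se_LD mice. For this comparison the exact permutation p was not under 0.05. The difference of the LD effect between the diets was -0.79 (interval -1.59 to 0.01, adjusted p = 0.998). Without Se_LD replicate 5 Se_LD against Se_Ctr was -0.47 and Se_LD against LD -0.48. Counting error gives a log2 SD of about 0.30 for this gene, against 0.44 within groups. Markers of the choroid plexus, a tissue next to the hippocampus, also differed between these mice. The summed level of 8 such markers was 274 and 1057 in the Se_LD mice with the lowest Txnrd3 (12 and 14.5). In the other 3, with Txnrd3 of 21.4 to 29.3, it was 23645 to 37721, against 6240 to 21215 in Se_Ctr. The Se_Ctr mouse with the lowest sum (6240) had the highest Txnrd3 of its group (41.2). The highest Txnrd3 of all mice (46, in LD) went with a sum of 9123, in a group with sums from 563 to 31293. Within groups Txnrd3 correlated with this sum at r = 0.45 over the 30 mice, and with that of 7 endothelial markers at 0.40. The part of choroid plexus or of other cell types in the Txnrd3 values was not tested.

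Sepx1, the methionine sulfoxide reductase, was between 80.8 and 138 normalized counts. Its highest group mean was in LD (123 ± 13.8) and its lowest in Se_HD (99 ± 19). Se_HD against Se_Ctr was -0.24 (interval -0.49 to 0.02, adjusted p = 1.00) and HD against Ctr was 0.04 (interval -0.30 to 0.37). The 3 lowest Se_HD values (80.8, 82.2 and 94.5) were below all Se_Ctr values, the lowest of which was 103.

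Dio2, the deiodinase that makes active thyroid hormone in astrocytes, was between 501 and 1059. Its counts were 689, 703, 739, 774 and 869.9 in Ctr and 541, 613, 634, 689 and 720.4 in Se_Ctr. In 3 of 5 Se_Ctr mice they were below all Ctr mice, a log2 fold change of -0.24 (interval -0.54 to 0.05, adjusted p = 1.00, exact two-sided permutation p = 0.0397). The counts of LD were 524, 757, 765, 775 and 816 and those of HD 558, 647, 681, 821 and 896. Those of Se_LD were 595, 634, 648, 737 and 820.1 and those of Se_HD 501, 579, 705, 718 and 1059. HD against Ctr was -0.08, with a fold interval of 0.78 to 1.14. Over both diets HD was at 1.01 times control (interval 0.875 to 1.17).

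Over the 7 comparisons of 5 mice with 5, the exact permutation test gave an unadjusted p under 0.05 in 4 of 56 member values, beside 4.67% of the values of all genes. Groups that did not overlap were found for 0 of the 56, beside 0.857% over all genes. The smallest p that this test can reach is 0.00794.

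Among 14 other selenoprotein genes in the table, 1 passed the adjusted test. Sepw1, a small selenoprotein of muscle and brain, was at 5087 ± 740.4 in Ctr, 3257 ± 811 in HD, 5973 ± 569 in Se_Ctr and 5165 ± 148 in Se_HD (mean ± SD, n = 5). It was higher in Se_HD than in HD by a log2 fold change of 0.70 (interval 0.42 to 0.97, limma adjusted p = 0.0147). All 5 Se_HD mice, from 5054 to 5423, were above all 5 HD mice, from 2386 to 4564. That call held in 28 of 30 fits that left out 1 mouse. When limma was fitted to only these 2 groups, 0 genes were called and the adjusted p of Sepw1 was 0.171. In the same contrast 10 of 14 microglia markers (median of the list -0.88) and 1 of 10 astrocyte markers fell and 1 of 10 neuron markers rose, and the part of cell composition in the Sepw1 value was not tested. It fell with HD pooled over both diets (-0.43, interval -0.63 to -0.24, adjusted p = 0.0398). HD against Ctr alone was -0.66 (adjusted p = 0.139) and Se_HD against Se_Ctr -0.21 (adjusted p = 1.00). The call for HD pooled held in 16 of 30 fits that left out 1 mouse, with adjusted p between 0.00332 and 0.0885.

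The gene 2700094K13Rik, which encodes selenoprotein H, had, like Gpx1, its highest group mean in Ctr and its lowest in HD. It was at 56.8 ± 10.5 in Ctr, 34 ± 12.9 in HD, 52.2 ± 15.7 in Se_Ctr and 48.4 ± 9.91 in Se_HD. HD against Ctr was -0.78 (adjusted p = 0.38) and Se_HD against HD 0.55 (adjusted p = 0.566). Dio3, which inactivates thyroid hormone and opposes Dio2, was at 30.2 ± 29.4 in Ctr and 108 ± 68.2 in HD (1.94, adjusted p = 0.175). Over the 14 genes the median log2 fold change was 0.01 in HD against Ctr and -0.02 in Se_HD against HD, beside 0.01 and -0.01 over all genes tested. For the 8 selenoenzymes these medians were -0.03 and 0.02.

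The partners of the 8 enzymes were read from lists of the same pathways. Of 12 thioredoxin system genes, 12 glutathione system genes, 11 genes of selenocysteine synthesis and insertion, 3 of selenium uptake, 3 methionine sulfoxide reductases without selenium, 2 glutathione peroxidases without selenium and 8 thyroid hormone genes, 0 passed limma's adjusted test in any contrast. At the unadjusted threshold 2 thioredoxin system genes were higher in HD than in Ctr, where 5.09% of all genes passed in either direction. In that contrast 1 thyroid hormone gene was higher, and 0 genes passed in each of the other lists named. In Se_HD against HD, where 8.38% of all genes passed, 3 thioredoxin system genes were lower. There 1 gene of selenocysteine synthesis and insertion was lower, and 0 passed in each of the other lists. Of 16 target genes of NRF2, the transcription factor that answers to electrophiles, 1 rose. Txnrd1 is also a known target of NRF2 but was kept apart from this list as a member. That gene, Gstm1, a glutathione transferase, was at 1313 ± 59.9 in Ctr and 1847 ± 257 in HD (0.48, adjusted p = 0.0454), with groups that did not overlap, and it rose with HD pooled by 0.40 (adjusted p = 0.00078). Without 1 mouse the call in HD against Ctr held in 3 of 15 fits. Gstm1 has close paralogs, among which the counting could split reads. Over the 16 genes the median was 0.22 in HD against Ctr and 0.05 in Se_HD against Se_Ctr, beside 0.01 and -0.01 over all genes. In the difference of the HD effect between the diets 3 of the 16 were lower at an unadjusted p under 0.05, where 4.77% of all genes passed in either direction. For HD pooled the median of the 16 was 0.14, with 6 higher and 0 lower at an unadjusted p under 0.05. Over all genes the median was 0.00, and 9.09% passed that threshold in either direction. In the same contrast 14 of 14 microglia markers (median 0.60) and 5 of 10 astrocyte markers (median 0.21) were higher at that threshold, and the part of cell composition in the values of the list was not tested.

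The partners named next are those chosen by the rule on p, and none passed after adjustment. Over their whole lists the median in HD against Ctr was 0.05 for the 12 thioredoxin system genes and -0.00 for the 12 glutathione system genes, beside 0.01 over all genes, and that of the 14 microglia markers was 1.14. The part of cell composition in these values was not tested. Hmox1, heme oxygenase, was at 39 ± 8.37 in Ctr and 108 ± 70.1 in HD (1.29, adjusted p = 0.0863). Prdx6, a peroxidase without selenium, was at 1159 ± 115 in Ctr, 1779 ± 524 in HD and 1229.8 ± 209 in Se_HD (0.57 for HD against Ctr, adjusted p = 0.139). Prdx1 was at 0.36 (adjusted p = 0.292) and Slc7a11, the cystine carrier for glutathione synthesis, at 0.33 (adjusted p = 0.694) in the same contrast. The highest HD mouse was at 2289 for Prdx1, beside medians of 1415 in HD and 1178 in Ctr. For Slc7a11 it was at 838, beside medians of 560 and 476. Gpx8, a peroxidase of the endoplasmic reticulum with cysteine in place of selenium, was 0.68 for HD pooled (adjusted p = 0.249) and Gpx7 was 0.23. Txn1, the substrate of Txnrd1, was 0.34 in HD against Ctr (adjusted p = 0.641). Its highest HD mouse was at 863, beside medians of 422 in HD and 385 in Ctr. Gclc, which makes the first step to glutathione, was 0.06 and Gss, which makes the second, -0.24 (adjusted p = 0.71).

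The remaining genes named by the rule did not pass the adjusted test, and the values given for them are log2 fold changes of HD pooled over both diets. Msra was -0.16, Msrb2 -0.11 and Msrb3 0.03. Sephs2, which makes the selenium donor, was 0.16, Sepsecs, which makes selenocysteine on its tRNA, was -0.12 and Scly, which frees selenium from selenocysteine, was -0.16. Sepp1, the selenium carrier, was 0.16 (adjusted p = 0.539), Lrp8, its receptor in brain, 0.11, and Lrp2, its receptor in kidney, 0.33 with at most 15.2 normalized counts in a mouse. Among the thyroid hormone genes Thrb, a receptor, was -0.12.

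Across the 30 mice the 8 members did not move as 1 block. The 28 pairwise Pearson correlations of their log2 values ranged from -0.29 to 0.43 with a median of 0.02. Among 14295 genes compared, Gpx1 was most like 2700094K13Rik (r = 0.87), Chmp4b (0.87) and Enoph1 (0.84). With group means subtracted, Gpx1 and 2700094K13Rik still correlated at 0.85, so the relation held among mice of 1 group. Gpx4 was most like Ndufb7 (0.87), Ddrgk1 (0.84) and Ndufa13 (0.83), and Txnrd1 was most like Dhx32 (0.74), Asns (0.71) and Ctnnb1 (0.71). Dio2 was most like Paqr8 (0.77), Mertk (0.72) and Per2 (0.71), and Sepx1 had weaker neighbours, with 2610029G23Rik first (0.62), then Stra13 (0.61) and Cwc25 (0.60). These values share library preparation and depth. Gpx1 and 2700094K13Rik correlated with the GC index at 0.42 and 0.37, and within groups at 0.51 and 0.47.

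**Figure D4:**
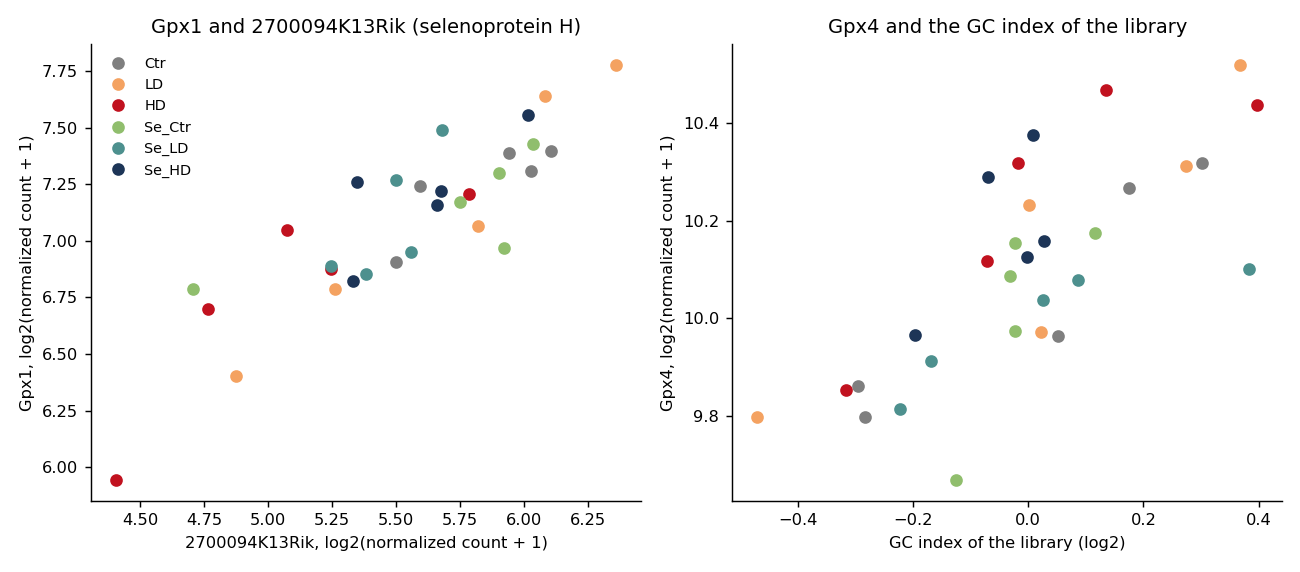
Left, log2 normalized counts of Gpx1 against those of 2700094K13Rik, and right, Gpx4 against the GC index of the library, with 1 point per mouse in the colours of the 6 groups. Both relations run through all groups, with r of 0.87 and 0.75 over 30 mice.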

How the data were processed

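Hippocampus RNA of 30 mice was made into stranded mRNA libraries and read as single-end reads. Per the labels and the methods, the authors trimmed reads with Trim Galore 0.4.2, mapped them with HISAT2 to NCBIM37, counted them per gene with featureCounts and divided the counts by DESeq2 size factors. The strand setting and the handling of reads with several hits are not given in the sources used here. The deposited values are these normalized counts, a signal from which reads were recovered by dividing each library by its smallest step (within 5.79e-05 of whole reads, for 100% of values). Positions, exon lengths and Sec codons were taken from GENCODE M1 on the same build.

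Normalized counts, with 1 added, were taken to log2 and passed to limma 3.58.1 (R 4.3.3) with a variance trend, over genes with a sum of at least 10. Contrasts within a diet used the 15 libraries of that diet (20031 or 19679 genes) and the others all 30 libraries (21383 genes). P-values were adjusted by the Benjamini-Hochberg method across the genes of each fit, and a call is an adjusted p under 0.05. Exact permutation tests were two-sided. Other settings were a pseudocount of 0.1 or 10, no filter or a mean of 10 or more, edgeR 4.0.16 and DESeq2 1.42.0 on recovered reads, no trend, quantile normalization, other sets of libraries, a block and leaving out each mouse. The fits were tested on simulated data. Figures were drawn with matplotlib 3.10.9.

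The members and the gene lists were chosen with earlier results of these data known. Besides the members, the genes named are those of the lists with an adjusted p under 0.05 in any contrast, the 3 per list with the lowest p for HD pooled, and the 3 genes most correlated with each member averaging 100 or more normalized counts, among genes averaging 10 or more. Some items under this rule are not reported here. Near-identical copies were searched with blastn at 95% identity over at least 75 bases. Each library is from 1 mouse. Depth sets a counting SD of log2 values between 0.04 for Gpx4 and 0.30 for Txnrd3.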

Additional observations from a re-analysis of the deposited data

Results flagged for a closer look

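Dixon's test for a single sample far from the others was applied to each member in each group of 5 mice, 48 sets in all, and 1 was past the critical value of 0.71. Chance alone is expected to mark about 1 in 20 sets. Dio2 in LD had a lowest value of 523.96 normalized counts (replicate 4), with the next at 757 and the highest at 816, so the gap took 0.797 of the range.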

How the results depend on the processing

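The count of members with an adjusted p under 0.05 stayed at 0 in each of the 432 combinations of contrast and setting that were run (43 settings, some for part of the 12 contrasts), edgeR and DESeq2 included, and the lowest adjusted p of a member was 0.168 (Gpx4, HD pooled, with the GC index as a covariate, added after seeing the data). The median ratio of highest to lowest group mean over the 8 members was 1.22, and 1.19 after scaling by all reads on genes instead of the size factors. Of 3456 alternative fold changes of members, 124 changed sign, all of them of values that had not passed before adjustment.

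Unadjusted results depended on single mice. Leaving out 1 mouse moved the limma log2 fold change of Gpx1 in Se_HD against HD between 0.24 and 0.56, and that of Gpx4 for HD pooled between 0.14 and 0.23. Sepw1 in Se_HD against HD kept its call in 28 of 30 fits that left out 1 mouse and in 10 of 11 other alternatives. Gstm1 in HD against Ctr kept it in 3 of 15 and 6 of 11, and for HD pooled in 30 of 30 and 11 of 11.

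Counts over all genes moved more. HD against Ctr had 26 calls and between 0 (limma without the trend) and 200 (all 30 libraries in 1 fit). Leaving out 1 mouse gave 3 to 76. Se_HD against HD had 70, with 0 when only those groups were fitted, 228 by DESeq2 and 15 to 168 without 1 mouse, and HD pooled had 45, with 23 to 183 and 26 to 140. The causes were not tested.

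Library numbers fall into sets of 6 with 1 mouse per group, but the labels do not call these batches, and mice of 1 set did not deviate together (median correlation -0.02, with 19 of 75 pairs over 0.1). With the set as a replicate block 0 members passed in each contrast, and 3 of 96 values passed before adjustment. With it Gstm1 in HD against Ctr had an adjusted p of 0.0993 and Sepw1 for HD pooled one of 0.0657. Counts limit Txnrd3 and Gpx3 most, at 8 and 16 reads in the shallowest case.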
